A study of Mus musculus with 6 samples.

Results

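The genes described here mark endothelial cells, the cells that line blood vessels, or signal to them. They were read in laser-captured motoneuron regions of the mouse spinal cord. All probe sets (the groups of array probes that read 1 transcript) whose annotated gene symbol is exactly one of 34 names were taken, which gave 62 of the 45037 probe sets that are not controls. Another 2 probe sets are annotated to Ramp2 together with Vps25 and were not used. The study asked whether motoneurons of the left and right cervical cord differ in their transcripts. It used 3 littermate embryos at E11.5 that all carried the HB9::GFP transgene, in which the HB9 (Mnx1) promoter drives GFP in spinal motoneurons. GFP-positive regions of the left and of the right side were captured from the same 12 µm cryosections of an untreated embryo, so each embryo gave 1 left and 1 right pool, 6 arrays in all. There was no other genotype or treatment, and the groups left and right hold 3 pools each. A captured region holds the motoneurons and whatever lies among them, including vessels, and where a vessel gene is lower, fewer endothelial cells and less RNA per cell cannot be told apart.

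Vessels do not arise within the neural tube but sprout into it from a plexus that surrounds it. Sprouts follow VEGF, which endothelial cells sense through the receptor Kdr, while Flt1 binds VEGF tightly and acts largely as a decoy. In mouse and chick, developing motoneurons are themselves known to restrict the entry of vessels into their columns through VEGF and soluble Flt1. Tie receptors and angiopoietins, apelin and its receptor, and transcription factors of the Ets and SoxF families also act in the formation of vessels.

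Signals are MAS5 values on a linear scale with the same trimmed mean on each array, and the medians of the 6 arrays lay between 99.9 and 118. Probe sets were tested where at least 1 of the 6 pools gave a signal of 200 or more, the limit used in the study. Right was set against left as log2(R/L) within each embryo, sets of 3 values are in the order of embryos 1, 2 and 3, and ± is the SD over the 3 embryos. A difference met the fold rule of the study if it had the same sign in all 3 embryos and its mean and no fewer than 2 of the single ratios lay beyond 0.58 (1.5-fold). The study also required a detection (present) call in 1 or more pools of every embryo. That filter was not applied here, so counts under the rule are not those of the study. A limma model of side plus embryo gave the p-values. With 3 pairs an exact two-sided sign-flip test cannot give a p below 0.25. The right pool of embryo 1 stood apart in its mesenchyme: the summed signal of 18 mesenchyme genes (brightest probe set of each) was 19197 there and 1642 to 3615 in the 5 other pools, although the lowest signal of any of them was 2.44 and none was at 0. The summed signal of 12 blood cell (erythroid) genes, of which 11 were found on the array, ranged from 20734 to 38689 on the left and from 23081 to 37071 on the right.

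Of the 62 endothelial probe sets 32 reached 200 in at least 1 pool, as did 21853 of the 45037 probe sets that are not controls. Of the 34 genes, 22 had a tested probe set (32 probe sets in all) and 12 did not. In all 6 pools 6 genes (Kdr, Esam, Aplnr, Cd93, Ets1 and Apln) had a probe set at 200 or more. The 12 genes without a tested probe set were Cdh5, Icam2, Tek, Tie1, Flt4, Ecscr, Emcn, Plvap, Robo4, Sox18, Vegfc and Nos3, whose highest signals in any pool ran from 78.0 to 189. Several of these are defining markers of endothelium, above all Cdh5, the cadherin of endothelial junctions, and Tie1 and Tek, and their signals did not reach the limit in any pool. Values of different probe sets depend on the probes and are not ranked against each other here.

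**Figure D1:**
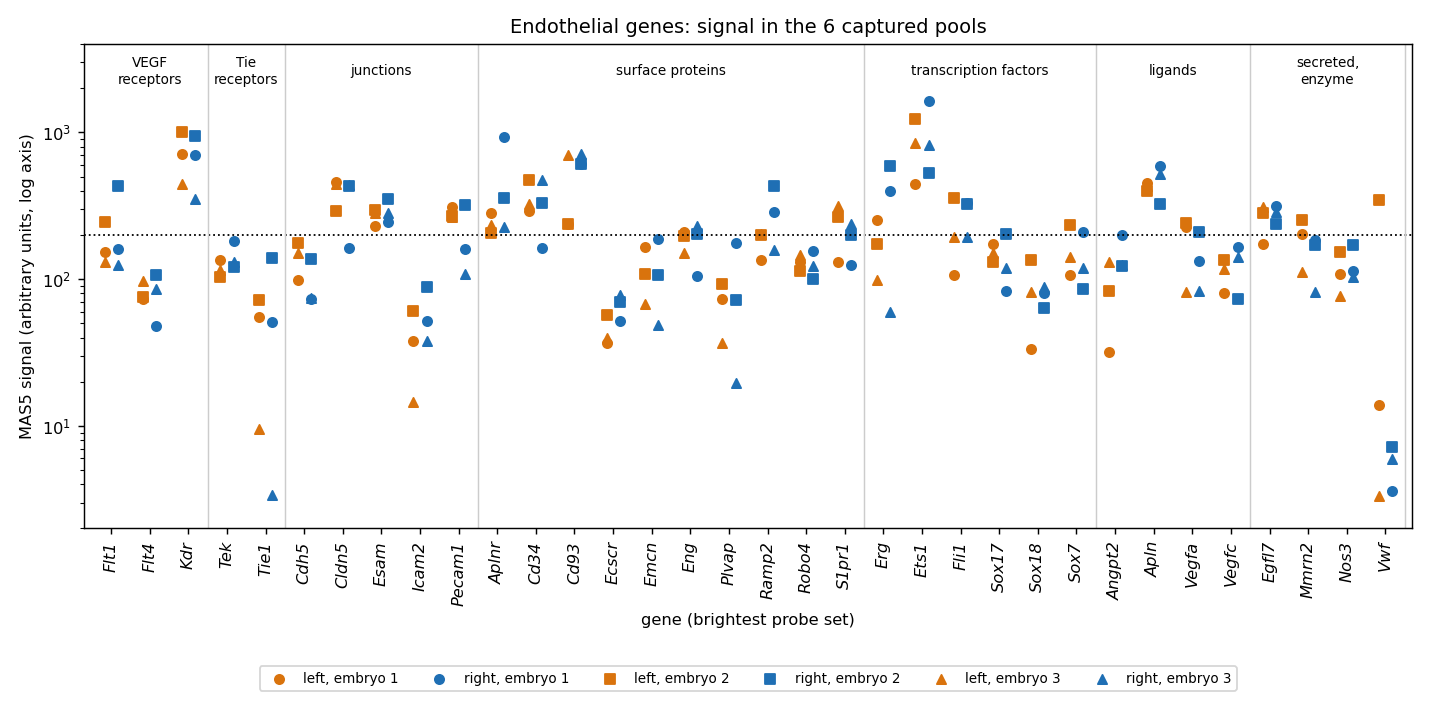
Signal of the 34 endothelial genes (brightest probe set of each, by mean log2 signal) in the left (orange) and right (blue) pools of embryos 1 (circles), 2 (squares) and 3 (triangles), on a log axis, grouped by role. A dotted line at 200 shows the limit, which 12 of the genes do not reach in any pool, with any probe set.

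Among the receptors for VEGF, Kdr was the one above the limit in all pools. Its signal was 713, 1013 and 447 in the left pools of embryos 1, 2 and 3 and 700, 939 and 351 in the right pools. Both pools of embryo 2 were the highest and both pools of embryo 3 the lowest, while the left and right values of the same embryo were close and the sides overlapped. The log2(R/L) averaged −0.16 ± 0.17 (SD, n = 3 embryos; limma adjusted p = 0.974). Flt1 read 152, 247 and 131 (left) and 161, 429 and 124 (right) in its only tested probe set, again highest in embryo 2 and lowest in embryo 3. Its mean log2(R/L) was 0.27 ± 0.47, set by embryo 2 alone (0.80). The dimmer Flt1 probe sets, all below 200, did not all keep that order of embryos. The mean signal of 1440926_at in embryos 1, 2 and 3 was 78.3, 136 and 31.3. That of 1454037_a_at was 98.7, 184 and 132 and that of 1419300_at was 71.5, 121 and 127, both lowest in embryo 1. Flt4, the receptor for VEGF-C, stayed below 200 in both of its probe sets. The dimmer of them read 21.9, 24.7 and 30.7 (left) and 78.2, 89.8 and 80.5 (right), so its sides did not overlap. With no signal limit that probe set averaged 1.70 ± 0.27 (SD, n = 3 embryos; limma adjusted p = 0.971). The brighter Flt4 probe set averaged −0.10, so the pair disagree.

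The 250 bases before the annotated start of Kdr and Flt1 are printed for 2 reasons. The tested probe sets of both genes kept the same order of embryos, although not every dimmer Flt1 probe set did. In addition, 3 of the 34 genes (Erg, Fli1 and Ets1) encode Ets factors, which bind DNA at a GGAA core. The sequences are from RefSeq, build GRCm38.p6, with Kdr at chr5:75978456-75978705 and Flt1 at chr5:147726012-147726261, both on the minus strand, and each GGAA on either strand (GGAA or TTCC) is in capitals.
Kdr: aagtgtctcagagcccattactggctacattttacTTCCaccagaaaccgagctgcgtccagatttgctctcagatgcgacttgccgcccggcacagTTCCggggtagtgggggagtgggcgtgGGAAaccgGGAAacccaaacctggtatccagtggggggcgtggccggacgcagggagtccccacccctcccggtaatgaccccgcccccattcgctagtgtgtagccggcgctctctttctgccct
Flt1: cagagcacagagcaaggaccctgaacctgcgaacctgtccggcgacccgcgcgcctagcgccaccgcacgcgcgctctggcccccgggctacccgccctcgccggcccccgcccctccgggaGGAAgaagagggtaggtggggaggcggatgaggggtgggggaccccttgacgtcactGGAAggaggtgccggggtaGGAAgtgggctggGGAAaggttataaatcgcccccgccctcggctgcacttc
Each holds 4 such cores. The core is short, and 93.4% of the 32851 promoter windows in the same table hold it, so its presence in 18 of the 20 windows that matched 15 of the endothelial genes is a description only. The longer form CCGGAAG (or CTTCCGG) is in 6.9% of all windows and in 0 of those 20, which says no more than that these letters are not in these windows.

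The Tie receptors take part in angiopoietin signalling, which steadies the vessel wall. Tek, the receptor of the angiopoietins, read 134, 103 and 115 (left) and 183, 121 and 130 (right). Tie1, its partner, read 55.2, 72.6 and 9.60 (left) and 51.1, 139 and 3.37 (right), with the lowest values in embryo 3 on both sides. Neither was tested. Of the ligands, Apln, the apelin peptide made by sprouting tip cells, read 453, 401 and 428 (left) and 586, 327 and 517 (right), with overlapping sides and a mean log2(R/L) of 0.12 ± 0.36. Angpt2, the angiopoietin of remodelling vessels, came up to 200 in 1 pool, the right of embryo 1, and was lowest in the left pool of the same embryo (31.9). Its mean of 1.04 ± 1.42 rested on that embryo (2.65, against 0.55 and −0.07). Vegfa, which neural cells make rather than endothelium, read 228, 239 and 81.2 (left) and 134, 209 and 83.6 (right) in its tested probe set, lowest in both pools of embryo 3.

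Junction genes gave no shared direction, and the median over their 3 tested probe sets was −0.31. Esam, an adhesion molecule of endothelial tight junctions, stayed within a narrow range, at 231, 295 and 284 (left) and 245, 351 and 283 (right), and its log2(R/L) averaged 0.11 ± 0.13. Cldn5, the main claudin of brain endothelium, read 462, 289 and 444 (left) and 162, 434 and 439 (right), so the right pool of embryo 1 was low and the sides overlapped. Pecam1, a platelet and endothelial adhesion molecule, read 309, 269 and 265 (left) and 161, 318 and 108 (right). It was lower on the right in embryos 1 and 3 and higher in embryo 2, with a mean of −0.67 ± 0.81. None of the 3 met the fold rule.

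The surface proteins included Cd93 and Aplnr, the genes with an unadjusted limma p below 0.05. Over the 9 tested probe sets of all surface proteins, 3 of them of Cd93 and 2 of Aplnr, the median of the mean log2(R/L) was 0.54. Cd93 encodes a glycoprotein of endothelial cells that also occurs on blood stem and myeloid cells. Its probe set 1419589_at read 237, 238 and 704 (left) and 609, 605 and 711 (right), so embryos 1 and 2 were low on the left and embryo 3 was high on both sides. The log2(R/L) of that probe set was 1.36, 1.35 and 0.01 and met the fold rule, although the sides were almost equal in embryo 3, with a mean of 0.91 ± 0.77 (SD, n = 3 embryos; limma adjusted p = 0.974). A second Cd93 probe set, 1456046_at, read 346, 319 and 416 (left) and 488, 578 and 496 (right). All its right pools lay above all its left pools, and its mean of 0.54 ± 0.31 stayed just under the limit of the fold rule (limma adjusted p = 0.974). The third tested Cd93 probe set averaged −0.04 ± 0.76, with ratios of 0.77, −0.17 and −0.73, and thus did not share that direction.

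Aplnr, the apelin receptor, is found on sprouting and venous endothelium. Its probe set 1438651_a_at read 267, 178 and 90.5 (left) and 2052, 778 and 65.9 (right), and 1423037_at read 280, 207 and 234 (left) and 927, 359 and 227 (right). Both were highest in the right pool of embryo 1, next in the right pool of embryo 2 and not higher on the right in embryo 3. The log2(R/L) of the former was 2.94, 2.13 and −0.46, with a mean of 1.54 ± 1.77. That of the latter was 1.73, 0.79 and −0.05, with a mean of 0.82 ± 0.89, and the limma adjusted p was 0.974 for each. Mesenchyme genes were higher in the same pools. The median log2(R/L) of their 16 tested probe sets was 3.07, 1.26 and 0.04 in embryos 1, 2 and 3, and 7 of the 16 met the fold rule with the right higher (2.40% of all tested probe sets). The part of mesenchyme in the Aplnr values was not tested. Ramp2, the partner of the adrenomedullin receptor that keeps vessels intact, read 134, 199 and 203 (left) and 287, 433 and 158 (right), with ratios of 1.10, 1.12 and −0.36.

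The other surface proteins did not follow this pattern. Cd34, a sialomucin of endothelial and blood progenitor cells, read 290, 473 and 323 (left) and 163, 329 and 472 (right). S1pr1, a receptor for sphingosine 1-phosphate that stabilises vessels, read 131, 264 and 314 (left) and 126, 200 and 236 (right), lower on the right in all 3 embryos with a mean of −0.29 ± 0.20. Eng, a TGF-beta co-receptor, averaged −0.12 ± 0.81 in its tested probe set, with −0.99, 0.04 and 0.60 in the 3 embryos. A dimmer Eng probe set below the limit read 52.8, 10.3 and 16.1 (left) and 121, 127 and 46.9 (right). Plvap, the diaphragm protein of fenestrated vessels, Emcn and Robo4 ran from 19.6 to 189 over all pools in their brightest probe sets.

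Transcription factors of the vessel wall, with 8 tested probe sets (4 of them of Ets1) and a median of 0.33, differed widely between single pools. Ets1, which is also made outside endothelium, for example in neural crest, read 444, 1225 and 841 (left) and 1625, 531 and 820 (right) in probe set 1452163_at. The right pool was the higher in embryo 1, the left pool in embryo 2, and the sides were close in embryo 3, with ratios of 1.87, −1.21 and −0.04. The signs in embryos 1 and 2 were the same for 1426725_s_at (2.42, −1.79 and 0.55). The other 2 tested Ets1 probe sets did not share that reversal and were higher on the right in embryo 2. Of these, 1422028_a_at read 603, 484 and 628 (left) and 816, 732 and 561 (right). The ratios of 1422027_a_at were 0.77, 0.40 and −0.07. Erg, an Ets factor that maintains endothelial identity, read 254, 174 and 98.7 (left) and 401, 586 and 59.4 (right), with ratios of 0.66, 1.75 and −0.73. Fli1, its relative in endothelium and blood, read 106, 357 and 193 (left) and 330, 326 and 194 (right). Its mean of 0.50 ± 0.98 rested on embryo 1 (1.63). Of the SoxF factors, Sox7 read 106, 235 and 142 (left) and 208, 85.3 and 119 (right), opposite in embryos 1 and 2, and Sox17 averaged −0.26 ± 0.85 in its tested probe set.

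Among secreted proteins and enzymes, Egfl7, a matrix protein released by endothelium, had 4 tested probe sets with means of −0.09, 0.16, 0.32 and 0.49, and 3 of them were higher on the right in embryo 1 and lower in embryo 2. Mmrn2, an endothelial matrix protein that binds Cd93, had 2 tested probe sets that pointed opposite ways in all 3 embryos, with means of −0.38 ± 0.23 and 0.55 ± 0.45. Vwf, the clotting factor stored in endothelium and platelets, read 13.8, 345 and 3.35 (left) and 3.62, 7.16 and 5.94 (right). It thus reached the limit in a single pool, the left of embryo 2. The platelet genes Pf4 and Ppbp were at 628 and 279 in that pool, against 107 and 99.2 in the right pool of the same embryo. The summed signal of 8 platelet genes, of which 7 were on the array, was 843, 1866 and 1724 (left) and 1308, 1001 and 1512 (right). It was thus also high in both pools of embryo 3, where Vwf read 3.35 and 5.94. The part of platelets in the Vwf value was not tested.

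**Figure D2:**
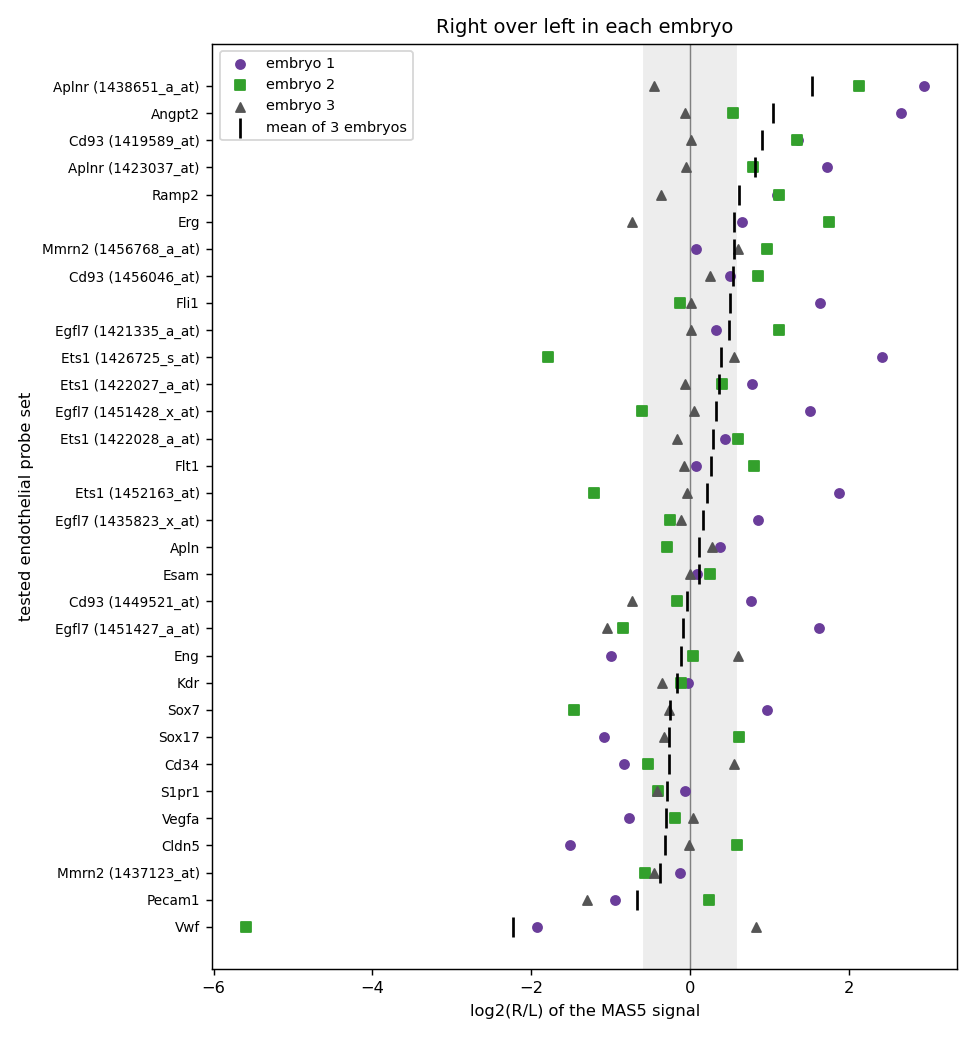
Log2(R/L) of the 32 tested endothelial probe sets in embryos 1 (circles), 2 (squares) and 3 (triangles), ordered by the mean (bar). Inside the grey band the change is below 1.5-fold. Aplnr, Cd93 (1419589_at), Ramp2 and Erg lie to its right in embryos 1 and 2 but not in embryo 3, and the value of Vwf at −5.59 comes from 1 pool.

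Across the vessel genes no difference between the sides passed the test. With limma 0 of the 32 tested probe sets passed an adjusted p of 0.05, as did 0 of all 21853 (0% in either direction), and unadjusted 2 were below 0.05 with the right higher (Aplnr, 0.0249, and Cd93, 0.0178) and 0 with the left higher, against 1.92% and 1.48% of all tested probe sets. Over all probe sets that is 419 with the right and 323 with the left higher, a split that turned to 327 and 528 when each array was scaled to a common median. The fold rule was met by 1 of the 32 with the right higher (Cd93; 2.40% of all tested probe sets) and by 0 with the left higher (1.55% of all). A higher signal on the right in all 3 embryos was found for 4 of the 32 (12.7% of all) and on the left for 3 (10.8% of all). In 1 probe set, of Cd93, the 3 right pools lay above the 3 left pools (2.98% of all), and in 0 the reverse (2.45% of all). The median of the mean log2(R/L) was 0.19 over the 32 and 0.02 over all tested probe sets, but −0.004 when only the brightest probe set of each gene was counted. Without embryo 1 the Cd93 probe set no longer met the fold rule with the right higher and 1 of Mmrn2 did (0.695% of all then tested). Without embryo 2 there were 0 (0.888% of all), and without embryo 3 there were 5, of Aplnr, Cd93, Erg and Ramp2 (4.66% of all).

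The embryos differed in how far the vessel genes departed from equality. In embryo 1 the right pool was beyond 0.58 above the left in 15 of the 32 probe sets (19.0% of all tested) and the left above the right in 7 (16.4% of all). The counts for embryo 2 were 12 (16.7% of all) with the right and 6 (12.9% of all) with the left higher, and those for embryo 3 were 3 (2.75% of all) and 4 (4.13% of all). Some genes have several tested probe sets. Those with the right higher were of 9, 10 and 3 genes in embryos 1, 2 and 3, and those with the left higher of 7, 4 and 4. Irrespective of size, the right pool was the higher for 22 of the 32 in embryo 1 (51.8% of all), for 17 in embryo 2 (52.4% of all) and for 12 in embryo 3 (49.8% of all). The 22 were of 13 genes, the 17 of 14 and the 12 of 10. Of the 32 probe sets 5 reached 200 in right pools alone and 3 in left pools alone, and so entered these counts through the side where they were high. Those that reached 200 on both sides made up 12 of the 15 and 5 of the 7 in embryo 1, 9 of the 12 and 4 of the 6 in embryo 2, and 1 of the 3 and 3 of the 4 in embryo 3. Dim probe sets give larger ratios: among tested probe sets with a mean signal under 500, the share beyond 0.58 with the right higher was 28.1%, 26.2% and 5.17% in embryos 1, 2 and 3, and for the 27 endothelial ones of that brightness it was 44.4%, 33.3% and 11.1%. With the left higher the shares were 21.3%, 18.4% and 7.87% of the dim probe sets and 25.9%, 18.5% and 14.8% of the endothelial ones. The genes beyond the limit to the right in embryos 1 and 2 alike were Aplnr, Cd93, Erg and Ramp2 (5 probe sets; 4.90% of all tested), and to the left Vwf (1 probe set; 2.94% of all tested).

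**Figure D3:**
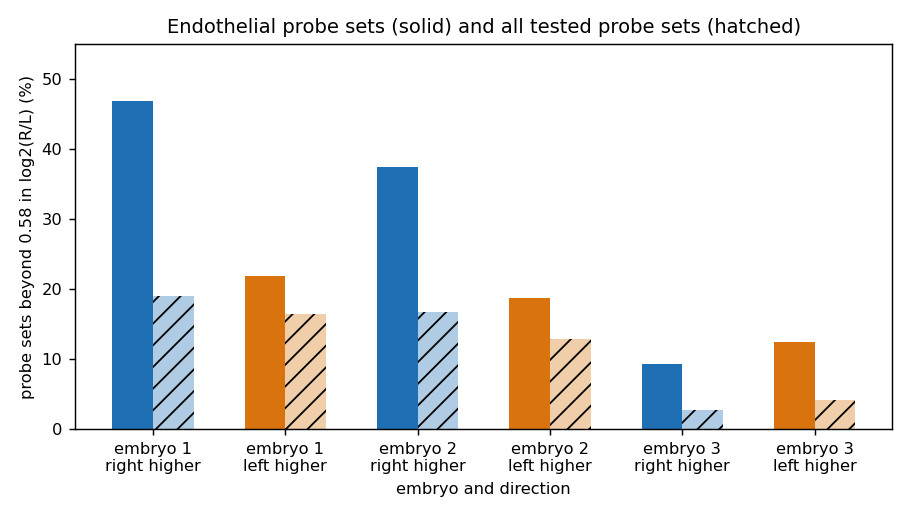
Share of the 32 endothelial probe sets (solid bars) and of all 21853 tested probe sets (hatched bars) with a log2(R/L) beyond 0.58, with the right (blue) or the left (orange) higher, in each embryo. The widest gap is in embryo 1 with the right higher, at 46.9% against 19.0%. The 15 endothelial probe sets of that bar are of 9 genes.

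As a rough measure of how much vessel RNA a pool holds, the log2 signal of each of the 22 genes (brightest tested probe set) was taken relative to its mean over the 6 pools. The 22 include Vegfa, which neural cells make, and Ets1, which is also made outside endothelium. They also include Vwf, Angpt2 and Sox17, which reached 200 in 1 pool each, while Cdh5, Tek and Tie1 were not tested and are not among them. The left and right pool of embryo 1 had a median over the genes of −0.17 and 0.18. The pair of embryo 2 had 0.22 and 0.29 and that of embryo 3 had −0.02 and −0.22, so both pools of embryo 2 were above the mean and the right pool of embryo 3 below it. The left pool of embryo 3 was near the mean, and with a mean signal of 200 or more required (15 genes) the pools of embryo 3 were at 0.003 and −0.015. Counting only the 6 genes that reach 500 in some pool, the left pool of embryo 2 fell to −0.17. The summed signal of 23 core endothelial genes ranged from 4234 to 5100 on the left and from 3868 to 6217 on the right, and the right pools of embryos 3 and 2 gave the lowest and highest sum.

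Signals in both pools of embryo 3 were below those in the 4 other pools for 8 of the 32 probe sets (12.8% of all tested), of Kdr, Flt1, Erg, Aplnr, Ets1, Mmrn2 and Vegfa, and above them for 1, of Cd93 (13.4% of all tested). Both pools of embryo 2 were the highest for 3, of Kdr, Flt1 and Esam (8.78% of all tested), and the lowest for 1, of Apln (8.06% of all tested). Both pools of embryo 1 were the highest for 0 (9.93% of all tested) and the lowest for 3, of Cd34, Esam and S1pr1 (11.9% of all tested). Single pools that gave the highest signal were the right of embryo 1 for 10 probe sets (22.0% of all tested), the right of embryo 2 for 9 (17.1% of all tested) and the left of embryo 2 for 8 (17.7% of all tested). The 10 were of only 5 genes, while the 9 were of 9 and the 8 of 8. The left of embryo 1 was the highest for 1, of Cldn5 (19.1% of all tested), and the left of embryo 3 for 2 (12.6% of all tested). This sorting of the embryos was chosen after the values were seen. In a limma F-test of the embryo term 0 of the 32 passed an adjusted p of 0.05 (0.270% of all tested), and 4 had an unadjusted p below 0.05 (15.3% of all tested). These were Kdr (0.00215, adjusted p = 0.117), Aplnr (0.00357, adjusted p = 0.135), Erg (0.011, adjusted p = 0.198) and Flt1 (0.0426, adjusted p = 0.307). Without embryo 1 the call was made for Aplnr, Erg and Kdr (5.15% of all then tested), without embryo 2 for Aplnr and Erg (6.20% of all) and with medians scaled for Aplnr (1.11% of all). Each embryo is 1 animal, so this test reads the difference between 3 animals against the spread between their sides. On simulated data it recovered 0 of 200 probe sets changed by −2 on the log2 scale in embryo 3. Its 0 calls among the 32 therefore do not show that the embryos were alike.

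Further genes of the pathway were read from lists drawn up by function. Of 30 genes of VEGF, Notch, ephrin and related signals in vessels, 16 were tested (34 probe sets) and 0 passed the limma threshold, while 1 probe set met the fold rule with the right higher (2.40% of all tested) and 0 with the left higher (1.55% of all). It was that of Notch1, a receptor that restrains tip cells and also keeps neural progenitors, at 144, 229 and 199 (left) and 296, 360 and 237 (right). Notch4, the Notch receptor typical of endothelium, read 213, 254 and 173 (left) and 287, 399 and 211 (right), higher on the right in 3 of 3 embryos with a mean of 0.45. Nrp1, a VEGF co-receptor that neurons also carry as a semaphorin receptor, read 7627, 10125 and 5058 (left) and 7918, 9580 and 4903 (right) in its brightest probe set, with the embryos in the same order as for Kdr. The list had a median log2(R/L) of 0.06.

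Of 16 genes of the blood-brain barrier 10 were tested (16 probe sets), and 1 probe set met the fold rule, with the left higher (1.55% of all tested). It was that of Slco1c1, a thyroid hormone transporter of brain vessels, at 719, 829 and 264 (left) and 24.0, 434 and 252 (right), a difference that rested on embryos 1 and 2. Slc2a1, the glucose transporter of the barrier, read 521, 670 and 471 (left) and 437, 536 and 417 (right). Of 20 further endothelial genes 9 were tested (13 probe sets) and 0 met the fold rule, with Tal1 at 503 to 1394 on the left and 913 to 1602 on the right. Mural cells, which wrap vessels, were read by 14 genes, of which 10 were tested (13 probe sets) and 0 met the fold rule. Their summed signal was 5707 in the right pool of embryo 1 and 2123 to 3322 in the other 5, and Acta2, a smooth muscle actin, made up 2109 of it there against 70.1 to 212 elsewhere. Pdgfrb, the receptor by which mural cells are recruited, read 401, 395 and 187 (left) and 731, 518 and 202 (right), lowest in both pools of embryo 3. Of 3 lymphatic genes, among them Prox1, which is also a neuronal factor, 0 met the fold rule. For these lists too, the share over all tested probe sets was 2.40% with the right and 1.55% with the left higher.

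**Figure D4:**
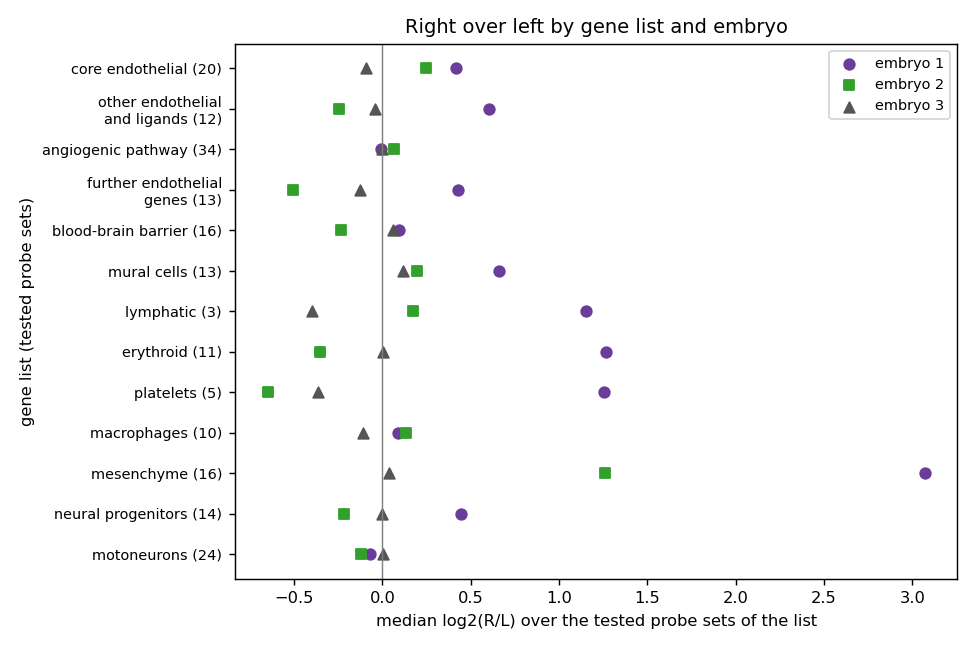
Median log2(R/L) over the tested probe sets of each gene list (number in brackets) in embryos 1 (circles), 2 (squares) and 3 (triangles). Core endothelial genes lie at 0.41, 0.25 and −0.09, mesenchyme genes at 3.07, 1.26 and 0.04, and motoneuron genes near 0 in each embryo.

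Blood cells travel inside vessels, and macrophages settle beside them. The median log2(R/L) was 1.26, −0.36 and 0.00 for 11 erythroid probe sets, 1.26, −0.65 and −0.37 for 5 platelet probe sets and 0.09, 0.13 and −0.11 for 10 macrophage probe sets. Of these probe sets 0 met the fold rule (2.40% of all tested with the right and 1.55% with the left higher). Motoneuron genes, 24 tested probe sets of 13 genes, had medians of −0.07, −0.12 and 0.00. The part of these lists in the endothelial values was not tested.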

How the data were processed

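RNA from each of the 6 laser-captured pools was hybridised to 1 single-colour Affymetrix array. The authors deposited MAS5 signal intensities from Affymetrix Expression Console, linear values with a 2% trimmed mean of 500 per array; detection calls were not used here, and precision is limited by the number of arrays. Probe sets were named through the platform annotation: 34945 name 1 gene, 932 several and 9160 none, and 64 controls were left out. The 34 genes and all other lists were chosen with earlier results of these data known.

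From the log2 intensities, right was compared with left in limma 3.58.1 (R 4.3.3) in a model of side plus embryo, with a trended eBayes prior and Benjamini-Hochberg adjustment over the 21853 tested probe sets. Side and embryo come from the labels. Left and right of an embryo are the same animal, and their deviations correlated at 0.241, 0.215 and 0.495. The embryo term was tested by a moderated F-test. Tested on simulated data for right against left, limma recovered 0, 103 and 142 of 200 probe sets changed by 1, 2 and 3 on the log2 scale. For the embryo term it recovered 0 and 84 of 200 probe sets changed by −2 and −4 in embryo 3.

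Values in every pool are given for members at 200 or more in all pools, those that met the fold rule or had an unadjusted p below 0.05, and those that differed most between embryos. Other members are given where they show the range of their role. From other lists, Notch4, Slc2a1, Tal1, Acta2, Pdgfrb, Pf4 and Ppbp were named after their values were seen. The brightest probe set is that with the highest mean log2 signal. Alternatives were other scalings, an added constant, other signal and fold limits, no trend, no replicate block and leaving out each embryo.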

Additional observations from a re-analysis of the deposited data

How the results depend on the processing

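No endothelial probe set was called by limma for side under any alternative run. Of the 11 endothelial probe sets followed singly, 3 changed sign with an embryo left out, none of them called. Their means ranged from −0.012 to 0.32 for Apln and from −0.62 to 0.92 for Ets1 (1452163_at), lowest without embryo 1, and from −0.038 to 1.20 for Erg, lowest without embryo 2. Without the replicate block 0 of the 32 were called (0 of all 21853). An unadjusted limma p below 0.05 was then found for 0 of the 32, against 171 (right higher) and 149 (left higher) of all 21853. The fold rule called 1 endothelial probe set with the right higher (2.40% of all tested), but 2 with medians scaled (Aplnr, Cd93, 2.09% of all). With no signal limit it called 4 of 62 (Cd93, Eng, Flt4), where 6.23% of all were called. It called 0 with a 2-fold limit (0.874% of all) and 0 with all 3 embryos past the limit (0.384% of all). Without embryos 1, 2 and 3 it called 1, 0 and 5 (0.695%, 0.888% and 4.66% of all). With the left higher it called 0 (1.55% of all), and 1 without each embryo in turn. These were of Egfl7, Pecam1 and Vwf without embryos 1, 2 and 3 (0.786%, 0.687% and 2.87% of all).

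Over all tested probe sets, limma calls for side ranged from 0 to 15 (right higher) and from 0 to 6 (left higher) with an embryo left out. Fold rule calls with the right higher numbered 333 with 50 added, 2805 with no signal limit, 234 with a mean of 200 or more, 131 with a highest signal of 500 or more, 191 with a 2-fold limit, 84 with all 3 embryos past the limit and 144 to 986 with an embryo left out. With the left higher the counts were 197, 1696, 176, 104, 95, 49 and 143 to 607.

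The embryo term called 59 probe sets, but 242 with medians scaled (1 endothelial), 165 with 50 added, 14 with no signal limit, 38 with a mean of 200 or more, 0 without a trend, and 12 to 1291 with an embryo left out (0 to 3 endothelial). The endothelial median of 0.19 was 0.46 with a limit of 500 and −0.00 to 0.32 with an embryo left out. With a limit of 500 the endothelial level was −0.17 in the left pool of embryo 2, −0.25 in the left pool of embryo 3 and 0.69 in the right pool of embryo 1, and with medians scaled it was 0.42 in the left pool of embryo 2. Where a limit was changed or an embryo left out, fewer or more probe sets or samples entered; for the others the cause was not tested.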
